A study of Mus musculus with 136 samples.

Results

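The visceral yolk sac was compared with the embryo of the same conceptus in normal pregnancies of the NOD mouse strain, at the stage of 5 or 6 somite pairs. The concepti were chosen by their labels alone: the dam was a normoglycemic control, the embryo had 5 or 6 somite pairs, and embryo and yolk sac carry the same title stem. This gave 17 of the 66 concepti of the series, and 34 of its 136 libraries. NOD is an inbred strain in which autoimmune diabetes arises, but the dams of these litters had 105 to 164 mg/dl of blood glucose and were fed a chow diet. Dissection was on gestational day 8.5. There were 11 concepti with 5 and 6 with 6 somite pairs, 9 male and 8 female, from 10 litters. There was 1 litter with 4 concepti and 4 litters with 2 each, so that some concepti share a dam. Other libraries of the series come from older embryos or from diabetic dams and enter only where named. Each library holds all cell types of a tissue, and fewer cells of a type and less RNA per cell cannot be told apart.

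At this stage the embryo is shaping its neural plate into a tube, adding somites from the tailbud, and building a heart tube. The visceral yolk sac is a membrane around it. Its outer visceral endoderm takes up maternal proteins by endocytosis, digests them in lysosomes, and secretes serum proteins and lipoproteins, as the liver does later. Its inner extraembryonic mesoderm holds the blood islands, the source of primitive red cells with embryonic globins and of the first vessels. The study began from the question of whether maternal diabetes changes genes that transport nutrients. The normal pairs allow the tissues themselves to be compared in every gene.

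Promoters of Afp, Fga and Alas2 are printed because these genes belong to the serum protein and heme programs of the yolk sac, and because each holds letters of a motif known from such genes. They were chosen after the matches were seen. Afp encodes alpha-fetoprotein (chr5:90490464-90490763, plus strand), Fga the alpha chain of fibrinogen (chr3:83025903-83026202, plus strand), and Alas2 the erythroid enzyme that opens heme synthesis (chrX:150547167-150547466, plus strand). The sequences are from RefSeq on GRCm38.p6, 5′ to 3′, and run from 250 bases before to 50 after the start site. Capitals mark GTTAATNAT, read on either strand, a motif of HNF1 factors, in Afp and Fga, and AGATAA, on the reverse strand, a motif of GATA factors, in Alas2.
Afp: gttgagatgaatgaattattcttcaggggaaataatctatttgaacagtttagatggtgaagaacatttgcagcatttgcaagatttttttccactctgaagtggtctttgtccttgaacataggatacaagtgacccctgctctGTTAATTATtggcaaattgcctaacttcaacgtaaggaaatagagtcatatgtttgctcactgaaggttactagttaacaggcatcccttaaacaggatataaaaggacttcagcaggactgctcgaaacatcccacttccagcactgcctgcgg
Fga: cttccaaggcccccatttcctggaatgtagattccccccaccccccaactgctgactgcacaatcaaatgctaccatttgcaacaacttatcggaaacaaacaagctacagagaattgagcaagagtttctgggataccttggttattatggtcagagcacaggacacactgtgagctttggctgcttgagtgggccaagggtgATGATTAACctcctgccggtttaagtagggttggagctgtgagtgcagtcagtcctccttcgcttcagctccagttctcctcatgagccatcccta
Alas2: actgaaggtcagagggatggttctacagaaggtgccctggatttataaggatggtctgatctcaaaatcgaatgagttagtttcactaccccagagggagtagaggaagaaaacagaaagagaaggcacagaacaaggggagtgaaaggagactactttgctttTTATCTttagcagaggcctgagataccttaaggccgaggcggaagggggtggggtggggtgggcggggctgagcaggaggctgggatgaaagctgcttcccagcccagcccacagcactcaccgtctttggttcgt
The capitals lie at bases -105 to -97 of Afp, -46 to -38 of Fga and -86 to -81 of Alas2, counted from the start site. Among 27025 mouse promoters of this length, 0.836% hold the HNF1 letters and 11.4% the GATA letters. Of 22 serum protein and lipoprotein genes tested, 17 had a promoter in the table, and 2 of the 17 held the HNF1 letters. None of the 17 held the GATA letters, CAAAGTCCA of HNF4 (in 0.477% of all promoters) or CCACACCC of the CACCC box (in 3.57%). Of the 12 genes that led the yolk sac, 11 had a promoter there, and 1, Creb3l3, held the GATA letters. Of the 12 genes that led the embryo, 6 had a promoter there, and 1 of these, Sox1, also held the HNF1 letters. A match describes letters in this window and not a bound site.

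Totals were 1762872 to 5658850 counts in embryo libraries (median 2695660) and 1226712 to 3549343 in yolk sac libraries (median 2115652). Each count is a molecule read at its 3′ end, so that counts do not scale with transcript length. Levels below are normalized counts, that is counts divided by a size factor for each of the 34 libraries, and a positive log2 difference means a higher level in the yolk sac. A log2 difference is given with its standard error over the 17 pairs after ±. Genes of the mitochondrial genome took a median of 4.42% of counts in embryos and 6.86% in yolk sacs, and Gm42418, which overlaps ribosomal RNA, 3.11% and 7.4%. Xist and Y-linked genes matched the labelled sex in 34 of 34 libraries.

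Marker lists of each tissue are reported below, with members that go the other way, and a few yolk sac libraries stood apart. The yolk sac of conceptus N28M05J held heart tube genes at a summed level of 3157, against 144 to 735 in the other 16, while its embryo was the lowest of the embryos at 1437. The yolk sac of N28M06A was the highest in summed serum protein genes (37019.5, others 12457 to 25211) and globin and heme genes (27550.2, others 7575 to 22998). It was the lowest in endothelial genes (905, others 1108 to 2098). In each of these its littermate N28M06C came next to it. Results that rest on these libraries are given with and without them, and what set them apart was not tested.

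Most genes differed between the tissues. Of 10735 genes tested, 3711 (34.6%) were higher in the yolk sac and 3869 (36%) higher in the embryo at an adjusted p under 0.05, in edgeR's quasi-likelihood test with the conceptus as a block. At least 4-fold differences were called for 622 genes in the yolk sac (5.79%) and 649 in the embryo (6.05%). The median log2 difference of all genes tested was -0.012. With library totals as the only scaling that median was -0.21, and 2803 genes were higher in the yolk sac against 4913 in the embryo. The sign of a small difference can therefore depend on the scaling. The 17 embryos and 17 yolk sacs did not overlap in 992 genes higher in the yolk sac and 971 higher in the embryo, together 18.3% of genes tested.

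A gene was tested if it reached a CPM of 4.3 in at least 15 of the 34 libraries. Of the genes tested, 8394 reached that level in 15 libraries of each tissue, 1234 in embryos only and 652 in yolk sacs only, and the rest reached it only over both tissues together. Members of a list that reached it in 1 tissue only could hardly be called in the other direction, so each list is also counted over the members that reached it in both. Among all such genes 35.3% were called higher in the yolk sac and 31.9% in the embryo, with 2.85% and 1.26% called at least 4-fold. The plot of differences against levels shows where the main lists lie among all genes.

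**Figure D1:**
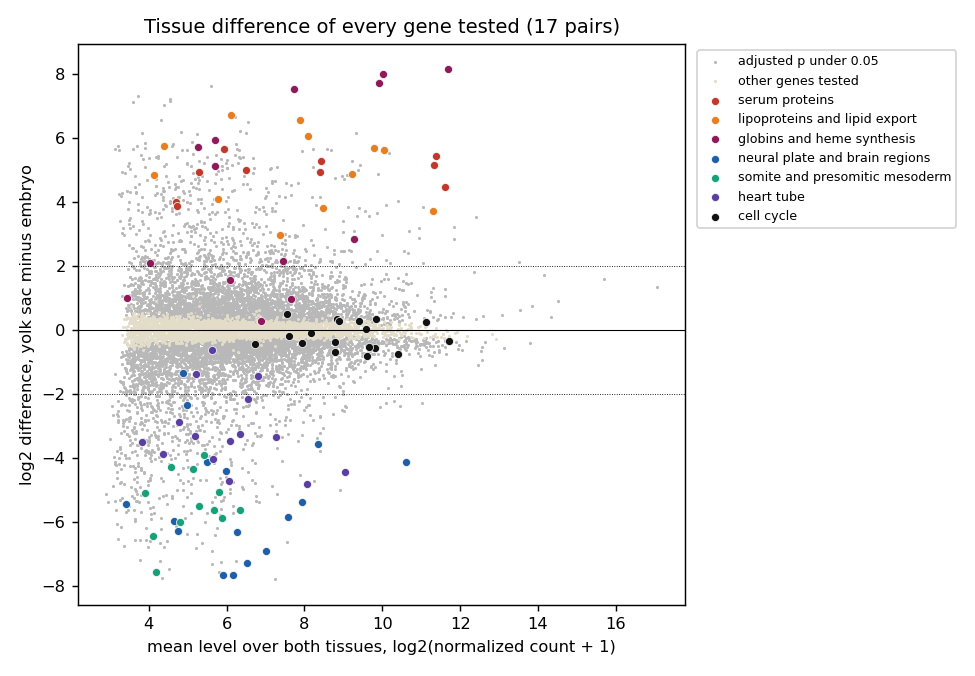
Each point is a gene tested, with its mean level on the x axis and its log2 difference, yolk sac minus embryo, on the y axis; dotted lines mark 4-fold. Globin, serum protein and lipoprotein genes reach the top, up to 8.14 for Hbb-bh1, and neural and somite genes the bottom.

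The 12 genes that led the yolk sac were mostly globins and genes of water, sugar and lipid handling. Hbb-bh1, an embryonic beta-like globin, was at 6.36 to 43.3 in embryos (median 22.9) and 2815 to 18733 in yolk sacs (median 5222). Every yolk sac lay above every embryo, with a log2 difference of 8.14 ± 0.23 (SE, n = 17 pairs; edgeR, adjusted p = 5.6e-20). Hbb-y, the other embryonic beta-like globin, was at 655 to 4658 against 1.4 to 14.6 (log2 difference 8.01 ± 0.21), and Hba-x, the embryonic alpha-like globin, at 1219 to 4634 against 0.706 to 18.3 (7.72 ± 0.24). Hba-a1, an alpha globin that adults keep, had a median of 425 in yolk sacs and 1.26 in embryos. Its near-identical copy Hba-a2 had at most 2.02, and the division of counts between both copies is uncertain.

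Fabp1, a fatty acid binding protein of liver and gut, had medians of 124 in yolk sacs and 0.887 in embryos. Aqp8 and Aqp3, channels for water and small solutes, were at 90.9 to 289 and 105 to 326 in yolk sacs and at most 4.7 and 5.58 in embryos. Creb3l3, a membrane-bound factor that controls lipid genes in liver and gut, was at 97.3 to 210.3 against at most 5.6. The lipoprotein genes Apoa2 and Apoa4, the glucose transporter gene Slc2a2, and Fmr1nb (104 to 320.1 against at most 4.97) completed the 12. Tissues did not overlap for any of them, against 18.3% of all genes tested. The 12 were picked for large differences with the same direction in all pairs, which nearly fixes this outcome.

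Serum protein genes were far higher in the yolk sac. Of 18 on the list 10 were tested, all 10 were called at least 4-fold higher there, and their median log2 difference was 4.98. The 5 that had enough counts in both tissues were all among them. Afp was at 44.6 to 234 in embryos (median 117) and 2418 to 10678 in yolk sacs (median 4956), a log2 difference of 5.45 ± 0.24 (edgeR, adjusted p = 2.1e-16). Rbp4, the serum carrier of retinol, was at 3408 to 7864 against 79.9 to 246, and Ttr, which binds thyroid hormone and the retinol carrier, at 4176 to 15654 against 102 to 565. Trf, transferrin, the carrier of iron, was at 458 to 928 against 4.64 to 31.4. Tissues did not overlap for any of these, against 18.3% of all genes tested. The part of yolk sac cells left on the embryos in these embryo levels was not tested.

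Genes of blood clotting showed the same direction at lower levels. Fgb, the fibrinogen beta chain, had medians of 620.5 in yolk sacs and 20.1 in embryos, Fgg 159 and 4.67, Fga 112 and 2.51, and F2 (prothrombin) 71.9 and 1.89. Plg (plasminogen) was at 23.8 to 64.6 in yolk sacs and at most 6.45 in embryos. Alb, the albumin of the later liver, was barely detected: no embryo had a count, and the highest yolk sac was at 1.62. The serum protein genes varied between yolk sacs, with Afp from 10678 in N28M06A down to 2418, and without that conceptus its log2 difference was 5.31.

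**Figure D2:**
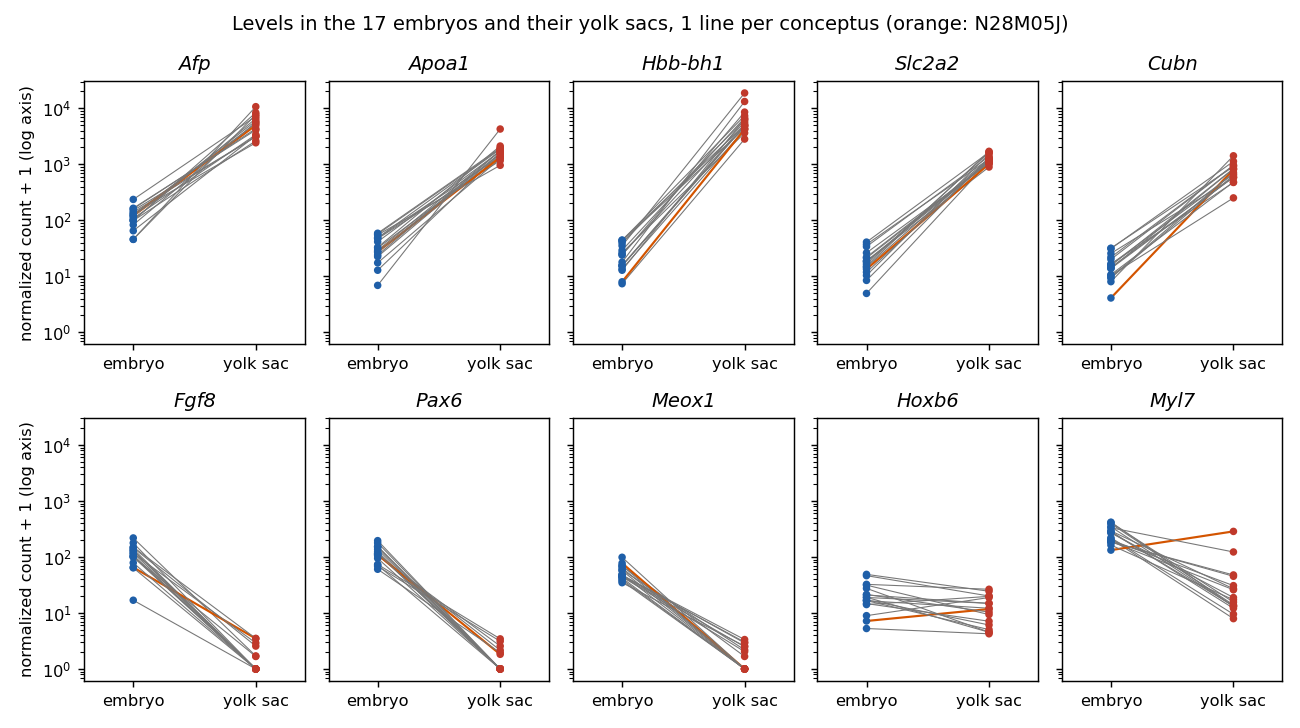
Normalized counts (log axis) of single genes in the embryo and yolk sac, with 1 line for each of the 17 concepti and N28M05J in orange. All lines of Afp, Apoa1, Hbb-bh1, Slc2a2 and Cubn rise from embryo to yolk sac, all lines of Fgf8, Pax6 and Meox1 fall, and for Myl7 only N28M05J rises.

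Lipoprotein genes had a median log2 difference of 5.25 over all members tested, against 4.98 for serum protein genes. Over the members with enough counts in both tissues the order turned, with medians of 4.35 and 5.15. All 12 tested of 13 were called at least 4-fold higher in the yolk sac, including the 6 with enough counts in both tissues. Apoe, a ligand for uptake of lipoproteins, was the most abundant, at 3597 to 6399 in yolk sacs and 268 to 528 in embryos (3.71 ± 0.11; edgeR, adjusted p = 1.6e-19). Apob, the backbone of triglyceride-rich particles, varied widely between yolk sacs, at 271 to 3572 (median 2245), but the lowest yolk sac still exceeded the highest embryo, at 110.3. That lowest value belonged to N28M06A, the same yolk sac that was highest for Apoa1, at 4257 against a median of 1579.

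Proteins that load lipid on these particles followed. Mttp, which transfers lipid to Apob, was at 435 to 894 in yolk sacs and 32.8 to 66.8 in embryos (3.82 ± 0.11). Dgat2, which makes triglycerides, differed least of the list, by 2.96 ± 0.10. Apom, which carries a lipid signal in plasma, had medians of 1069.9 and 35.9. The untested member, Pltp, was at 0 to 11.1 in yolk sacs and 1.43 to 15.9 in embryos.

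The endocytic machinery pointed the same way in 12 of 14 genes, each at least 4-fold, with a median of 3.50. Over the 8 with enough counts in both tissues the count was 7. Cubn and Amn encode cubilin and amnionless, which form 1 receptor for many serum proteins. Amn was at 811 to 1459 in yolk sacs and 16.4 to 72.6 in embryos (4.85 ± 0.15), and Cubn at 249.9 to 1415 and 3.09 to 30.7 (5.66 ± 0.19). Lrp2, megalin, which works with cubilin and is also made by neuroepithelium, differed less, at 245 to 1040.0 against 65.7 to 203 (2.36 ± 0.15). The clathrin adaptor gene Dab2 had the highest level of the list, with medians of 3819.9 and 266. Folr1, a folate receptor, was at 223 to 546 in yolk sacs and 3.89 to 14.3 in embryos (5.10 ± 0.16).

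The exceptions were Tfrc and Slc46a1. Tfrc, the receptor for transferrin, was higher in the embryo in 15 of 17 pairs, with medians of 761 against 523 (-0.49 ± 0.12; edgeR, adjusted p = 0.00058). Slc46a1, a proton-coupled folate transporter, was higher in the embryo in 16 pairs, with medians of 26 and 14.6 (-0.73 ± 0.13). Both overlapped between tissues, and both ran opposite to Trf and Folr1.

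All 11 lysosomal genes had enough counts in both tissues, 10 were called higher in the yolk sac and 6 at least 4-fold. Ctsl, the protease cathepsin L, was the most abundant, at 3769 to 14036 in yolk sacs and 414 to 1017 in embryos (3.20 ± 0.13). Ctsh, cathepsin H, differed most, with medians of 1174 and 41.6 (4.99 ± 0.16), and Lgmn, legumain, had 2574 and 157. Ctsd, cathepsin D, differed by only 0.78 ± 0.10, and its ranges overlapped. The membrane proteins Lamp1 and Lamp2 lay between, at 1.53 ± 0.08 and 1.34 ± 0.10. Cst3, an inhibitor of cathepsins, did not pass the test (0.46 ± 0.21; adjusted p = 0.055 in edgeR).

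Endoderm transcription factors were split. Hnf4a, a master factor of visceral endoderm and liver, was at 117 to 221 in yolk sacs and at most 8.87 in embryos (5.42 ± 0.20), and Foxa3 had medians of 112 and 14.1. Gata4 was higher in the yolk sac by 1.80 ± 0.14. Foxa2, which the floor plate and notochord also use, was higher there by only 0.93 ± 0.11. The related Foxa1 went the other way in all 17 pairs, with medians of 3.77 in yolk sacs and 36.4 in embryos. Hhex did not pass the test (-0.11 ± 0.14; adjusted p = 0.48 in edgeR). In all 9 of 11 tested were called higher in the yolk sac and 1 in the embryo. Over the 5 with enough counts in both tissues 4 were called higher in the yolk sac, none of them 4-fold, and none in the embryo.

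Of 22 transporters of glucose and fatty acids 9 were tested, with 6 called higher in the yolk sac and 3 in the embryo. All 5 with enough counts in both tissues were called higher in the yolk sac, and the 3 higher in the embryo had enough counts only there. Slc2a2, a glucose transporter of low affinity known from liver and pancreas, was at 892 to 1701 in yolk sacs and 3.94 to 39.7 in embryos (6.17 ± 0.18; edgeR, adjusted p = 1.6e-19). The study cautions that visceral endoderm is hard to strip fully from embryos, and that low Slc2a2 counts there could stem from yolk sac cells. The part of such cells in the embryo levels of Slc2a2 and of other yolk sac genes was not tested. Slc2a3, of high affinity, was the most abundant in both tissues, at 6534 to 9492 and 1925 to 3119 (1.80 ± 0.08), with no overlap. Slc2a1, the widely expressed transporter, had medians of 2383 and 2100.4. Its difference of 0.27 ± 0.10 passed the test (adjusted p = 0.017 in edgeR), but was 0.06 with library totals as the scaling (adjusted p = 0.60).

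Slc2a4, the transporter that insulin controls in muscle and fat, was higher in the embryo in all 17 pairs, at 7.98 to 28.9 against at most 4.89, and so was Slc2a8, with medians of 16.6 and 7.43. Slc27a3 and Slc27a4, which take up and activate fatty acids, were higher in the yolk sac by 1.06 ± 0.12 and 0.73 ± 0.12. Of the genes for import of fatty acids into mitochondria, Cpt2 was higher in the yolk sac (1.17 ± 0.11) and Cpt1c, a form known from brain, in the embryo (-2.13 ± 0.19).

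**Figure D3:**
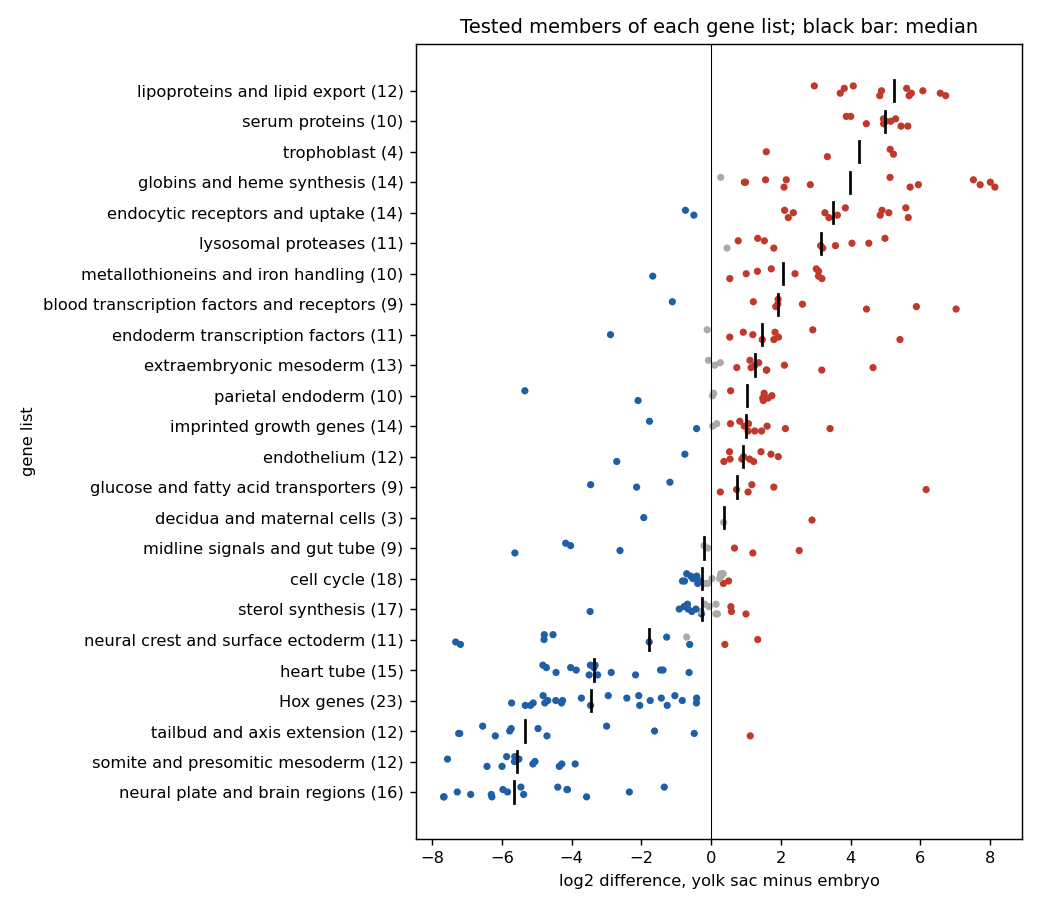
Each point is a tested member of the list at the left (number tested in brackets) at its log2 difference, yolk sac minus embryo; red and blue points were called higher in the yolk sac or the embryo, grey points were not called, and black bars are medians. Medians run from 5.25 for lipoproteins to -5.64 for neural genes.

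Heme synthesis accompanied the globins unequally. Alas2 was at 47.7 to 188 in yolk sacs and at most 3.52 in embryos (5.95 ± 0.19). Cpox, of a late step, had medians of 1037 and 145, and Fech, which inserts the iron, 279 and 63.8. Alad and Ppox differed less, by 0.95 ± 0.10 and 0.99 ± 0.21, and Urod did not pass the test (0.28 ± 0.12; adjusted p = 0.05002 in edgeR). Urod did pass without N28M05J, at 0.33 (adjusted p = 0.023 in edgeR), and without both N28M05J and N28M06A, at 0.23 (adjusted p = 0.049). Without N28M06A alone it did not pass, at 0.18 (adjusted p = 0.12 in edgeR). With the globins, 13 of 14 tested were called higher in the yolk sac. Of the 6 with enough counts in both tissues 5 were, 3 at least 4-fold. The adult beta globins Hbb-bs and Hbb-bt, near-identical copies with an uncertain split, had medians of 79.3 and 53.3 in yolk sacs.

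The globins did not peak in the same yolk sac. Hbb-bh1 was highest in the littermates N28M06A and N28M06C, at 18733 and 13208, and without N28M06A its log2 difference was 8.06. Hbb-y was highest in N28M06C, at 4658, with 4067 in N28M06A. Hba-x was near its lowest in N28M06A, at 1239 against a median of 1526, and highest in N24M21A. Adult Hbb-bs and Hbb-bt were highest in N28M06A, at 359 and 239.8, against at most 148 and 119.7 in the other 16. Klf1, a red cell factor, was at 53.4 to 179 in yolk sacs and at most 3.36 in embryos, and Gata1, the leading factor of that lineage, at 18.8 to 61.1 and at most 1.99. The yolk sac with the highest sum of globin and heme genes, N28M06A, had the lowest Gata1, at 18.8.

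Other blood genes ranged more widely. Runx1, needed for later blood stem cells, had medians of 61.9 in yolk sacs and 2.42 in embryos (4.46 ± 0.22). Tal1, Lmo2, Gata2 and Zfpm1, some shared with endothelium, were higher in the yolk sac by 1.91, 1.21, 1.92 and 1.86, with overlap. Kit, a receptor of blood progenitors, germ cells and other cells, was higher in the embryo in 16 of 17 pairs (-1.11 ± 0.17). Of 9 tested 8 were called higher in the yolk sac and 1 in the embryo, and over the 4 with enough counts in both tissues 3 and 1.

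Endothelial genes differed far less in size. Of 12 tested of 15, 10 were called higher in the yolk sac, none of them 4-fold, with a median of 0.91, including all 8 with enough counts in both tissues. Tek and Pecam1, of formed vessels, did not overlap between tissues (1.93 ± 0.11 and 1.72 ± 0.13). Kdr, the vascular growth factor receptor of the earliest vascular cells, was at 141 to 843 in yolk sacs and 278 to 701 in embryos. Its difference of 0.37 ± 0.14 was 0.18 with library totals as the scaling (adjusted p = 0.33 in edgeR). The lowest yolk sacs were N28M06A at 141 and N28M06C at 306, and the difference was 0.46 without N28M06A.

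Etv2 ran against the list. This factor acts briefly as blood and vessel precursors arise, and it was higher in all 17 embryos, at 32.4 to 105 against 2.12 to 19.8 (-2.70 ± 0.20). Emcn, a surface protein of endothelium, was also higher in the embryo (-0.75 ± 0.18).

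In extraembryonic mesoderm 10 of 13 genes were called higher in the yolk sac, and 7 of the 9 with enough counts in both tissues. At least 4-fold calls numbered 3 over all members and 0 over those 9, which had a median of 1.15. Tdo2, which degrades tryptophan, differed most, with medians of 263 and 10.5 (4.65 ± 0.23), followed by Postn, a matrix protein, with 55.2 and 5.71. Hand1 and Foxf1, factors of this tissue and of embryonic mesoderm, differed by 1.59 ± 0.15 and 0.74 ± 0.11 and overlapped. Bmp4, Tbx20 and Msx2 did not pass the test, at 0.11 ± 0.17, 0.27 ± 0.19 and -0.07 ± 0.28.

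Metal handling also favoured the yolk sac, in 9 of 10 genes tested and 7 of the 8 with enough counts in both tissues. The metallothionein genes Mt1 and Mt2 had yolk sac medians of 3277 and 2592, against 385 and 337 for embryos. Fth1, of the iron store ferritin, was at 1933 to 3921 against 367 to 812, and Slc40a1, the iron exporter ferroportin, at 108 to 187 against 11.7 to 24.4. Heph, an oxidase that works with ferroportin in the gut, was higher in all 17 embryos (-1.67 ± 0.15).

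Imprinted genes were mixed. Of 13 with enough counts in both tissues 9 were called higher in the yolk sac and 2 in the embryo. H19, an RNA without a protein product, was among the 10 most abundant genes of the yolk sac, at 14804 to 22247 against 2959 to 7021 in embryos (2.13 ± 0.11). Its neighbour Igf2, a growth factor, was higher in the yolk sac by 1.25 ± 0.10, and Dlk1 by 1.61 ± 0.12, both without overlap. Meg3 was higher in 16 of 17 yolk sacs (1.07 ± 0.20), with the lowest of them N28M06A, at 586 against a median of 4400.4. Grb10, which restrains insulin and growth factor signals, was higher in every embryo, at 1789 to 2780.4 against 504 to 846 (-1.76 ± 0.10). Mest was called higher in the embryo by a small difference (-0.41 ± 0.16). With counts summed per litter it was at -0.24 (adjusted p = 0.32 in edgeR) and not called, nor was it without litter N24M29 (-0.27), N28M06 or N28M22. Cdkn1c and Plagl1 did not pass the test. The other gene of the 10 most abundant in yolk sacs that was not among those of embryos was Spink1, a protease inhibitor, at 6064 to 26724 against 404 to 1437.

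The 12 genes that led the embryo were mostly factors of the neural plate and tailbud. Irs4, a docking protein for insulin and growth factor receptors, came first, at 190.0 to 465 in embryos (median 291) and at most 4.68 in yolk sacs (-7.79 ± 0.22; edgeR, adjusted p = 6e-20). Sox1, Pax6, Foxb1, Six3 and Otx2, of the neural plate and brain, had medians of 151, 113, 119.9, 165 and 244 in embryos. The highest yolk sac value among these was 4.96, for Otx2. Fgf8, Cdx1 and T, of the tailbud and primitive streak, had medians of 115, 144 and 102 in embryos and at most 2.51, 2.98 and 4.68 in yolk sacs. St8sia3 and Hoxaas3 were also among the 12. Hoxaas3 is an antisense gene of the Hoxa cluster, and the strand setting of the counting is not given in the sources used here, so its counts cannot be told from those of Hoxa genes. Where yolk sacs are near 0, the size of a log2 difference depends on the prior count of the fit.

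All 16 neural genes tested, of 23, were higher in the embryo, with a median of -5.64, but 14 of them had enough counts in embryos only. Sox11, a factor of neural and other progenitors, was the most abundant, at 1894 to 3805 in embryos and 87.9 to 367 in yolk sacs (-4.13 ± 0.13). Irx3 was at 329.8 to 982 and 19.1 to 136 (-3.57 ± 0.19). The embryo medians of Sox2 and Sox3 were 472 and 370.0, against 6.61 and 2.98 for yolk sacs, where the highest libraries reached 48.6 and 78.5.

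Somite genes came close to absence in the yolk sac. Summed over 20 genes they were at 6.38 to 38.8 there and 639 to 1208 in embryos, with the highest yolk sac that of N28M05J. All 12 tested had enough counts in embryos only. Foxc1, of paraxial mesoderm, was at 106 to 229 in embryos and at most 9.22 in yolk sacs. Lfng and Dll3, of the segmentation clock, had embryo medians of 115 and 107, against 1.56 and 1.65 for yolk sacs. Meox1, of formed somites, was at 33.7 to 97.7 and at most 2.35.

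Of 12 tailbud genes tested 11 were called higher in the embryo, but 9 of them had enough counts in embryos only. Of the 3 with enough counts in both tissues 2 were called higher in the embryo, none of them 4-fold, and 1 in the yolk sac. Cyp26a1, which degrades retinoic acid, was the exception, higher in all 17 yolk sacs at 120.1 to 413 against 49.7 to 115 (1.12 ± 0.14; edgeR, adjusted p = 8.3e-08). Lin28a, an RNA-binding protein of early tissues, was abundant in both, with medians of 1273 in yolk sacs and 1901 in embryos. Cdx2 kept a median of 25.5 in yolk sacs against 89.5, while its relatives Cdx1 and Cdx4 had 0 and 1.62.

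Hox genes, which set position along the body axis, were higher in the embryo in all 23 tested of 27, but to very different degrees. Of the 23, 15 had enough counts in embryos only and 7 in both tissues, 2 of the latter at least 4-fold higher. The median log2 difference was -4.77 over 7 genes of the Hoxa cluster, -1.43 over 9 of Hoxb, -2.04 over 5 of Hoxc and -4.68 over 2 of Hoxd. The middle of Hoxb differed least. Hoxb5, Hoxb6 and Hoxb7 differed by -0.42 ± 0.16, -0.82 ± 0.23 and -0.41 ± 0.15, with yolk sac medians of 43.4, 10.7 and 21.2, against 56.6, 17.9 and 28.2 for embryos. Without both N28M05J and N28M06A, Hoxb5 was not called, at -0.36 (adjusted p = 0.056 in edgeR). Within the same cluster Hoxb1 and Hoxb9 differed by -4.45 ± 0.21 and -5.33 ± 0.30. Hoxc8 had the highest median of the Hox genes in yolk sacs, 74.4 against 147 in embryos. Antisense transcripts in these clusters may add to the counts.

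**Figure D4:**
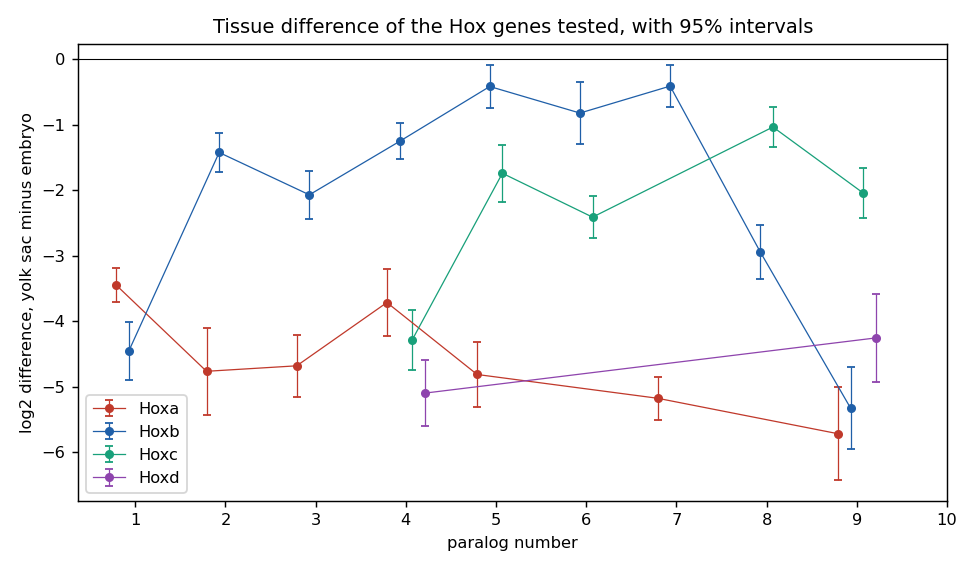
Log2 difference (yolk sac minus embryo) of the 23 Hox genes tested against paralog number, with 95% intervals and 1 colour for each cluster. Hoxb2 to Hoxb7 lie nearer 0 than the Hoxa genes, and Hoxb9 lies at -5.33.

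Heart tube genes were higher in the embryo in all 15 tested of 18, with a median of -3.36. Of these 10 had enough counts in embryos only, and 3 of the other 5 differed by at least 4-fold. Actc1, cardiac actin, was at 409.8 to 1434 in embryos (median 1024) and 12.4 to 891 in yolk sacs (median 26.9), and Ttn, titin, had medians of 342 and 6.19. In 13 of the genes tested exactly 1 yolk sac exceeded its own embryo, and in each of the 13 it was N28M05J. Without N28M05J the log2 difference of Actc1 was -4.71 in place of -4.44, of Myl7, an atrial myosin chain, -3.63 in place of -3.36, and of Ttn -5.21 in place of -4.82. Tnni1, a troponin, differed least, at -0.63 ± 0.24. Isl1, of progenitors that later join the heart, did not overlap between tissues, at 42.7 to 95.9 against at most 25.1.

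**Figure D5:**
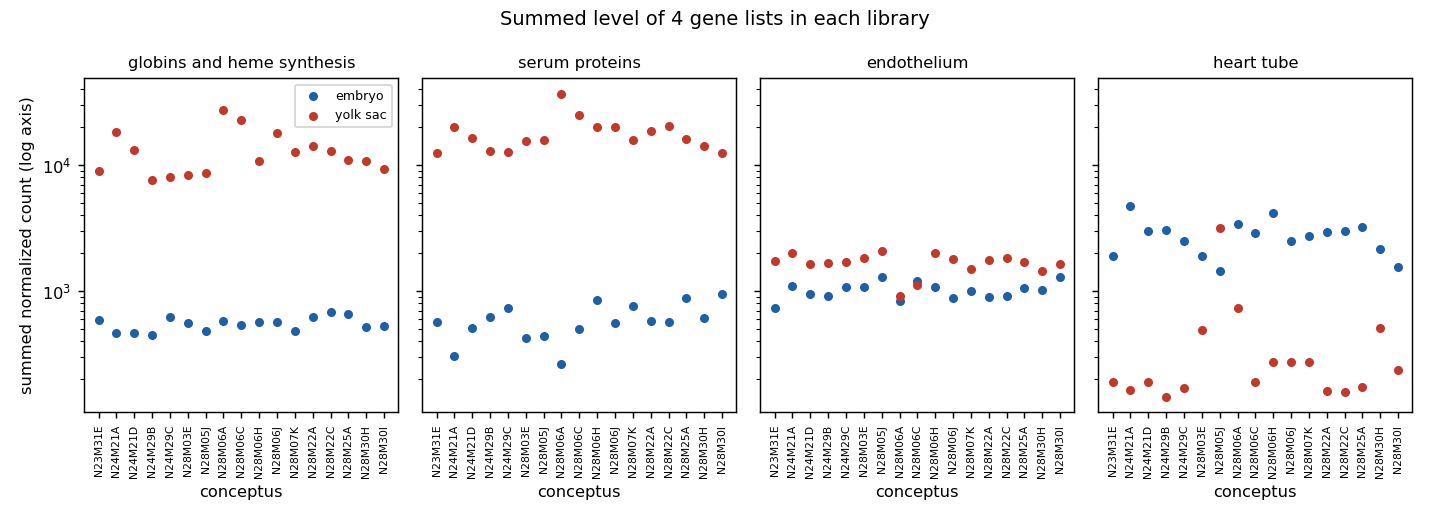
Summed normalized counts (log axis) of 4 gene lists in the embryo and yolk sac of each conceptus. Yolk sacs lie above embryos for globin and serum protein genes, endothelial genes lie closer together, with the yolk sac of N28M06C below its embryo, and for heart tube genes the yolk sac of N28M05J (3157) lies above its embryo (1437).

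Genes of neural crest and surface ectoderm were mixed, with 8 of 11 tested called higher in the embryo and 2 in the yolk sac. Of the 11, 7 had enough counts in embryos only, and of the 4 with enough in both tissues 2 were called higher in the embryo and 2 in the yolk sac, with a median of -0.11. Sox9, of crest and cartilage, was at 281 to 584 in embryos and 8.93 to 33.1 in yolk sacs (-4.53 ± 0.13), and Foxd3, an early crest factor, had a median of 95.8 in embryos and at most 2.48 in yolk sacs. Snai2 and Snai1, related factors that move cells out of epithelia, went opposite ways: Snai2 was higher in the yolk sac in all 17 pairs (1.34 ± 0.13) and Snai1 in the embryo in all 17 (-1.77 ± 0.17). Ets1 was called higher in the yolk sac (0.40 ± 0.13), but was at 0.20 with library totals as the scaling (adjusted p = 0.22 in edgeR). Among midline and gut genes Shh, Nog, Trh and Pyy were higher in the embryo, and all had enough counts only there. Of the 4 with enough counts in both tissues 3 were called higher in the yolk sac and none in the embryo. The tight junction gene Cldn6, with medians of 427 and 67.8, Epcam and Sox17 were higher in the yolk sac.

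Cell cycle and sterol genes had medians of -0.26 and -0.27, against -0.012 for all genes. All 18 cell cycle genes had enough counts in both tissues, and their log2 differences ran from -0.82 to 0.50, with 9 called higher in the embryo and 3 in the yolk sac. Mcm3, of the replication helicase, was the only one without overlap, with medians of 557 in yolk sacs and 978 in embryos. Top2a and Plk1, of mitosis, had 2957 and 3663, and 1025 and 1674. Kif11, also of mitosis, was among the 3 called higher in the yolk sac, at 0.50. So was Mki67, of dividing cells, at 0.35, but it was at 0.16 with library totals as the scaling (adjusted p = 0.36 in edgeR). Of 17 sterol genes tested 8 were called higher in the embryo and 3 in the yolk sac, and over the 15 with enough counts in both tissues 7 and 3. Sqle, an early enzyme of the sterol branch, was lower in every yolk sac (-0.91 ± 0.08), and Hsd17b7, a later one, higher, with medians of 198 and 104.

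Markers of neighbouring tissues were read in the same libraries. Of 15 decidual and maternal genes 3 were tested and 4 had no count in any yolk sac, and their sums were 47.7 to 227 in yolk sacs and 31.9 to 79.4 in embryos. The highest sums were in the yolk sacs of N28M06A, N28M06C and N28M06J, at 227, 191 and 185. The former pair also had the highest sums of globin and heme genes, and N28M06A the highest adult Hbb-bs and Hbb-bt. The part of maternal cells in these values was not tested. Lum, a matrix protein that fibroblasts also make, was the 1 called higher in the yolk sac, with medians of 66.9 and 11.3. None of the 3 tested had enough counts in both tissues, and Lum had them in yolk sacs only. Ptprc, of leukocytes, had at most 1.42 in any yolk sac. Parietal endoderm genes, mostly of basement membrane, were called higher in the yolk sac in 6 of 10 tested, none of them 4-fold, and the same 6 were among the 8 with enough counts in both tissues. Sparc had medians of 2209 and 648, and Col4a1 616 and 226. Fst and Plat of that list were higher in the embryo.

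Trophoblast genes differed widely among yolk sacs. Prl3d1 and Prl2c2, of giant cells, had no count in any of the 34 libraries, and 4 of 15 members were tested. All 4 were called higher in the yolk sac, but 3 of them had enough counts only there. The 1 with enough counts in both tissues was not 4-fold higher. Rhox6 was at 28.3 to 501 in yolk sacs (median 66.9), with the highest in N28M30H, and at most 6.72 in embryos. Plac1 was highest in the same yolk sac, at 524 against a median of 163. Ascl2 was highest in both yolk sacs of litter N24M29, at 237 and 117 against a median of 15.3. So was Tfap2c, of trophoblast and surface ectoderm, at 424 and 349.6, with a range of 0 to 424 in yolk sacs that spans the 35 to 101 of embryos (-0.70 ± 0.52, not called). Without that litter it was called higher in the embryo, at -1.24 (adjusted p = 0.026 in edgeR), and DESeq2 gave -1.33 over all pairs (adjusted p = 0.027). The part of chorionic or ectoplacental tissue in these libraries was not tested. Esx1 was even, at 38.9 to 97.8 in yolk sacs and at most 3.36 in embryos.

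Interaction terms compared the tissue difference with that in other concepti. Over 66 libraries of normal dams, the difference at 5 or 6 somite pairs was set against that at 7 to 9, and 2 of 11507 genes passed in edgeR's quasi-likelihood test (0.0174%), while 1346 had an unadjusted p under 0.05. Of 328 named and listed genes none passed, the lowest adjusted p being 0.091. Over 68 libraries with 5 or 6 somite pairs, normal and diabetic dams were compared, and 0 of 11677 genes passed in edgeR (0.0%), while 1052 had an unadjusted p under 0.05. The lowest adjusted p of 329 named and listed genes was 0.41. Conceptus N28M07E in the stage comparison and D28M27C in the comparison of dams carry different sex labels for embryo and yolk sac. Both were kept as pairs, and the effect of leaving them out was not tested. A missed threshold does not show that the tissue differences are equal.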

How the data were processed

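RNA of 17 embryos and their 17 visceral yolk sacs was sequenced by the authors from its 3′ ends (QuantSeq FWD kit), with a molecular identifier on each molecule. Per the submitters' processing notes, reads were aligned to mm10 with STAR, collapsed by identifier and counted per gene with HTSeq; versions and the strand setting are not given in the sources used here. The deposited values are raw counts, used as deposited. Genes without a symbol in the deposit were named from GENCODE M21. Counts were fitted with edgeR 4.0.16 (R 4.3.3; quasi-likelihood test, TMM factors, conceptus as a block, filterByExpr with a minimum count of 10), with Benjamini-Hochberg adjustment over all genes tested and calls at an adjusted p under 0.05. The filter required a CPM of 4.3 in 15 libraries. Normalized counts used size factors of DESeq2 1.42.0. SE and p measure the spread between concepti, some of which share a dam.

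The pairing of embryo and yolk sac comes from the title stem. Deviations of the members of a pair from their tissue means correlated by -0.258 to 0.529 (median 0.0744), over 0.1 in 7 of 17 pairs. Only 2 of the 17 embryos correlated best with their own yolk sac. Data were simulated for this comparison over 10735 genes, with 50 genes at each size of change. Called were 60% of genes changed 1.5-fold toward the yolk sac, 98% of those changed 2-fold and 100% of those changed 4-fold. Of genes changed 0.5-fold 92% were called, and 4.89% of 184 calls were not changed genes. That simulation changed only 200 genes and drew both tissues from embryo means, without an effect of litter. In the comparison itself 7580 of 10735 genes were called, so these rates may not carry over to it.

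Named were the 12 genes with the largest difference in each direction among called genes with a mean of at least 100 in the higher tissue and the same direction in all pairs, the 10 most abundant genes of each tissue, and members of the gene lists with a mean of at least 10. Alb, Hba-a2, Pltp, Prl3d1, Prl2c2 and Ptprc lie below that and were named after their values were seen. Members and lists were chosen with earlier results of these data known. Alternatives were another scaling, test, filter, block, unit of replication and set of libraries. Repeat libraries of the same concepti, marked by a d in their title, entered only as an alternative. Some genes that the naming rule or the lists hold are not reported here by name.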

Additional observations from a re-analysis of the deposited data

Results flagged for a closer look

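The tissue difference changed with stage in 2 genes, picked out because the interaction term itself passed the test over 66 libraries of normal dams; both were chosen after their values were seen. Zfp703, a transcriptional regulator, had normalized counts of 146 ± 44.7 (SD, n = 17) in embryos and 43.8 ± 16.3 in yolk sacs at 5 or 6 somite pairs, a log2 difference of -1.73, and at 7 to 9 somite pairs the difference changed by a further -1.0190 ± 0.20 (SE; edgeR, adjusted p = 0.0386). Gm10800, a predicted gene on chromosome 2, had 14.4 ± 8.40 in embryos and 31.5 ± 63.1 in yolk sacs, an SD above the mean, and an interaction of -3.9089 ± 0.72 (edgeR, adjusted p = 0.0364). Neither passed with counts summed per litter, where 0 genes were called.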

How the results depend on the processing

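The conceptus was a block in every count reported, and without the block, ignoring the pairing, 3765 genes were called higher in the yolk sac and 3813 in the embryo, 630 and 637 of them at least 4-fold; the stage interaction then called 5 genes, and 0 with counts summed per litter. Counts of calls moved by over 1.5 times under 3 other settings. A test against a 2-fold difference called 1166 genes higher in the yolk sac and 1158 in the embryo. Without a filter on low counts 5939 were higher in the embryo, and at least 4-fold calls were 1242 in the yolk sac and 1847 in the embryo, over more genes tested. The 4 concepti with title number 24 alone gave 2428 and 2279 calls, from fewer samples, and there Ets1 was at -0.002462 in place of 0.40, the only named gene whose called difference turned; the cause was not tested. Leaving out each litter in turn gave 3427 to 3652 genes higher in the yolk sac and 3376 to 3803 in the embryo, with 564 to 622 and 508 to 636 at least 4-fold. Slc2a1, Kdr, Mki67, Gata6 and Ets1 were among those that lost their call with library totals as the scaling. Single litters decided some small differences: Slc2a1 (0.27) was not called without N24M21 (0.20) or N28M06 (0.23), nor Kdr (0.37) without N23M31 (0.32), N24M29 (0.33) or N28M22 (0.28), nor Mki67 (0.35) without N24M29 (0.30), N28M03 (0.32), N28M22 (0.29) or N28M25 (0.32). Without N28M05J and N28M06A, chosen after seeing the data, 3590 and 3810 genes were called. The median of the globin and heme list was 3.99 over 14 genes and 5.19 over 13 without both concepti, since fewer genes were tested. At this depth genes under a CPM of about 4.3 in both tissues could not be tested.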

Other observations

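The yolk sac of N28M06A was the lowest of the 17 for several genes of different roles while it was the highest in summed globin and heme genes and in summed serum protein genes, though not in each gene of these lists. It was at 586 for Meg3 (median 4400), 117 for Mki67 (median 560), 271 for Apob (median 2245), 21.3 for Flt1, a vascular receptor (median 159), and 51.5 for Col1a1, a matrix collagen (median 283). It was the highest for Apoa1, at 4257 (median 1579), and for Spink1, at 26724. These genes were chosen after their values were seen, and what they share was not tested.

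The spread of the paired log2 difference between concepti varied by gene list. Its median SD was 0.468 over 6630 genes with a mean of at least 50, 0.458 over 18 cell cycle genes and 0.42 over 7 metal handling genes. It was 0.89 over 7 serum protein genes, 0.994 over 10 neural genes and 1.73 over 8 heart tube genes, the last of which include the yolk sac of N28M05J. Of the genes tested, 14 of 16 neural and 10 of 15 heart tube genes had enough counts in embryos only. The part of counting noise at low levels in these SDs was not tested.

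Some genes of trophoblast and of surface or neural ectoderm were high in the same few yolk sacs. These genes were chosen here after their values were seen, and others peaked elsewhere. The yolk sac of N28M30H was the highest for Rhox9 (166, median 7.05), Elf5, a trophoblast stem cell factor (29.7, median 4.68), Krt19 (193, median 30) and Sox3 (78.5, median 2.98). Its littermate N28M30I was the highest for Sox2 (48.6, median 6.61) and Sox21 (23.8, median 3.77), and N24M29B came second for each of these. By contrast, Esx1 was highest in N28M25A (97.8, median 54.1) and Cldn6 in N28M06A (907, median 427). For Plac1, N28M06A came second, at 330.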
